A study of Mus musculus with 12 samples.

Results

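The aminoacyl-tRNA synthetases were followed through a knockout of the osmotic transcription factor Nfat5 in mpkCCD cells, an immortalised mouse line derived from principal cells of the cortical collecting duct. The set held every gene whose symbol follows the naming pattern of the synthetases, together with the non-catalytic proteins Aimp1, Aimp2 and Eef1e1. This gave 40 of 52015 genes: 20 cytosolic synthetases, 17 mitochondrial synthetases and 3 scaffold proteins. Scr cells had received a non-targeting scramble guide RNA and kept Nfat5, whereas Nfat5-KO cells came from 2 CRISPR/Cas9 clones, N1 and N3. Each was grown for 5 days at 300 mosmol/kg (isotonic) or at 600 mosmol/kg (hypertonic, by 100 mM NaCl and 100 mM urea).

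The 12 RNA-seq libraries comprised 2 each for Scr_300 and Scr_600 and 4 each, 2 per clone, for Nfat5-KO_300 and Nfat5-KO_600. The values used here were FPKM, that is, fragments scaled to gene length and to the number of mapped fragments, with 1 value per group. Which libraries and clones entered each value is not given. The methods of the study state 2 biological replicates per condition and genotype, whereas the labels list 4 knockout libraries per condition. With 1 value per group no replicate error could be computed and no difference was tested. Every ratio below is a description of these 4 group values without a replicate check. The scramble control is a line of its own, and a difference between lines cannot be told apart from loss of Nfat5. Ratios were taken as log2 of FPKM + 0.1 over genes with at least 0.5 FPKM in either group, and 1.5-fold was the size at which a ratio was counted. All 40 genes passed this filter in all 4 groups, the lowest value being 1.04 FPKM.

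Aminoacyl-tRNA synthetases attach each amino acid to its tRNA and so supply the substrates of the ribosome. Cytosol and mitochondria use largely separate enzymes encoded by separate nuclear genes, although Gars and Kars serve both compartments from the same gene. Several cytosolic synthetases are held together by Aimp1, Aimp2 and Eef1e1 in the multisynthetase complex. Many genes for cytosolic synthetases are known targets of ATF4, the transcription factor of the amino acid and integrated stress response, which also acts on genes of serine, proline and asparagine synthesis. In the kidney, cells of the collecting duct meet high osmolality in the medulla, where Nfat5 controls genes for osmolyte transport and synthesis.

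Nfat5 mRNA itself was 5.61 FPKM in Scr_300, 7.93 in Scr_600, 3.47 in Nfat5-KO_300 and 6.88 in Nfat5-KO_600, and an mRNA level does not test for the loss of the protein. Epithelial markers were present in every group, with Krt8 between 187.7 and 374.8 FPKM. Of 12 principal cell markers 3 or 4 per group reached 0.5 FPKM, and Aqp2, the water channel that defines these cells, was at 0.245 FPKM or below. The principal cell markers together summed to 10.1 FPKM in Scr_300, 8.92 in Scr_600, 20.7 in Nfat5-KO_300 and 46.9 in Nfat5-KO_600, with Gata3 and Hsd11b2 the higher in both knockout groups. Markers of intercalated cells, thick ascending limb, fibroblasts and endothelium stayed below 0.5 FPKM in all groups, and 1 each of the proximal tubule and leukocyte lists passed it in at least 1 group. Their part in the results below was not tested, and in bulk RNA fewer cells of a type and less RNA per cell cannot be told apart.

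Cytosolic synthetases had far higher FPKM than their mitochondrial counterparts. FPKM is scaled to gene length, but the length used for each gene is not given in the sources used here. Annotated exon bases of the cytosolic genes ran from 2447 for Hars to 18102 for Eprs, so levels set beside each other between genes are approximate. The median level of the 20 cytosolic genes was 34.6 FPKM in Scr_300, 33.5 in Scr_600, 37.4 in Nfat5-KO_300 and 25.4 in Nfat5-KO_600. The median of the 17 mitochondrial genes was 4.03, 5.28, 4.26 and 5.13 FPKM in the same order. Vars, which charges valine tRNA, and Gars, which charges glycine tRNA, had the highest means over the 4 groups, at 89.9 and 86.7 FPKM. Eprs, the fused enzyme for glutamate and proline, and Cars, the cysteine enzyme, had the lowest cytosolic means, at 13.4 and 15.7 FPKM. The cytosolic genes differed in how far they moved between groups, from a highest-to-lowest ratio of 1.12 for Qars to 1.99 for Lars.

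**Figure D1:**
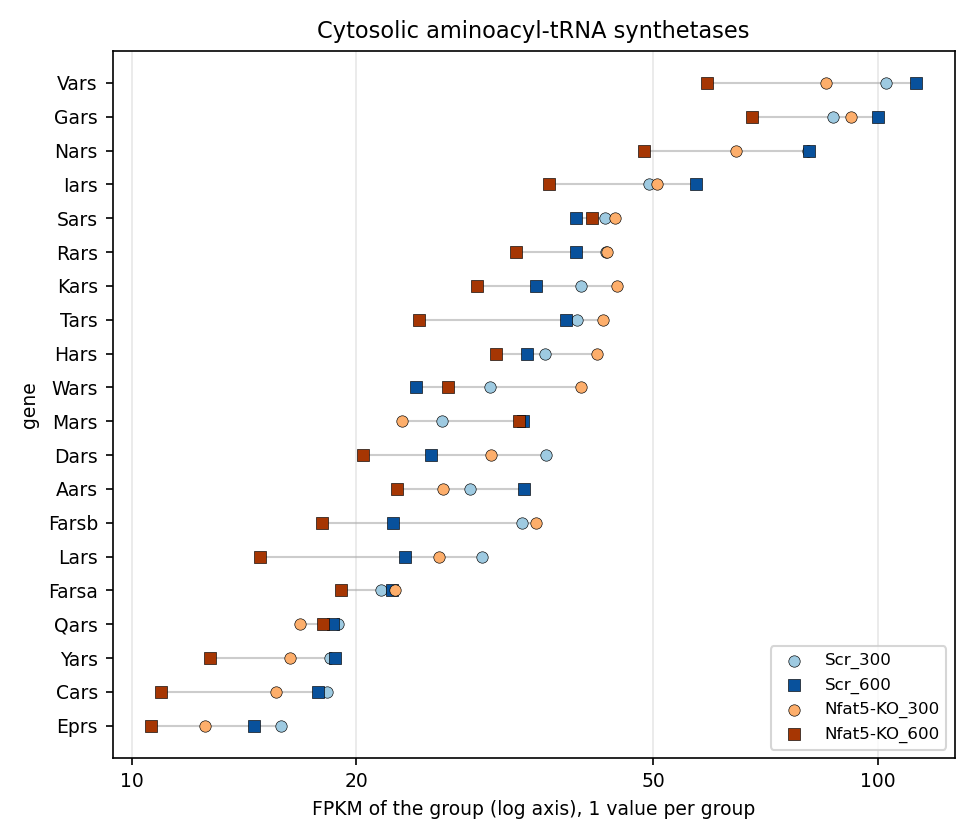
FPKM of each cytosolic synthetase (1 row per gene, ordered by mean level, log axis) in the 4 groups, with 1 value per group and a grey line from the lowest to the highest. The Nfat5-KO_600 value is the leftmost point in 16 of 20 rows and the rightmost in none.

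The question of the first comparison was whether loss of Nfat5 matters at normal tonicity. In Nfat5-KO_300 against Scr_300, cytosolic synthetases lay on both sides of the control: 10 of 20 were lower, beside 50.2% of all 12704 genes compared. Their median log2 ratio was -0.06, and that of all genes -0.00. None differed by 1.5-fold, while 5.27% of all genes were past this size upwards and 6.21% downwards. The highest ratios were those of Wars, the tryptophan enzyme (log2 ratio 0.40), and Hars, the histidine enzyme (0.23). The lowest were those of Eprs (-0.34) and Nars, the asparagine enzyme (-0.32).

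At 600 mosmol/kg most cytosolic synthetases were lower in knockout cells than in Scr cells. In Nfat5-KO_600 against Scr_600, 18 of 20 were lower, beside 52.2% of all 13063 genes compared, and their median log2 ratio was -0.38 beside -0.02 for all genes. At least 1.5-fold lower were 6 genes, against a background of 9.44%, and none was past that size upwards, against 9.84%. Well expressed genes as a whole leaned the same way, since 61.0% of those averaging 10 FPKM or more over the groups were lower and 6.90% were so by 1.5-fold or more. With FPKM rescaled to a common sum the cytosolic median was -0.26 beside 0.11 for all genes, 16 of 20 were lower, and 2 genes, Vars and Nars, were at least 1.5-fold lower, beside 6.84% of all genes. The summed FPKM of the 20 genes was 798.0 in Scr_300, 790.8 in Scr_600, 773.8 in Nfat5-KO_300 and 577.0 in Nfat5-KO_600.

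On the deposited scale the 6 genes past 1.5-fold were Vars, Nars, Cars, Iars, Tars and Lars. Vars (chr17:35000987-35016322, plus strand, GRCm38) stood at 102.5 FPKM in Scr_300, 112.7 in Scr_600, 85.2 in Nfat5-KO_300 and 59.1 in Nfat5-KO_600. Its level was thus highest in hypertonic Scr cells and lowest in hypertonic knockout cells, 47.6% below Scr_600 (log2 ratio -0.93). Nars was 80.6 and 81.0 FPKM in Scr_300 and Scr_600, and 64.5 and 48.6 in Nfat5-KO_300 and Nfat5-KO_600. For Nars both knockout values were below both control values, and the hypertonic log2 ratio was -0.74. Cars (chr7:143557230-143600090, minus strand) read 18.3, 17.8, 15.6 and 10.9 FPKM in Scr_300, Scr_600, Nfat5-KO_300 and Nfat5-KO_600, a hypertonic log2 ratio of -0.69.

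Iars, the isoleucine enzyme and a member of the multisynthetase complex (chr13:49682100-49734267, plus strand), was at 49.5 FPKM in Scr_300, 57.2 in Scr_600, 50.6 in Nfat5-KO_300 and 36.2 in Nfat5-KO_600. The isotonic groups were nearly level, and the hypertonic ones lay on opposite sides of them (log2 ratio at 600 mosmol/kg -0.66). Tars, the threonine enzyme (chr15:11382301-11399665, minus strand), was at 39.5, 38.2, 42.8 and 24.3 FPKM in the same order of groups. Only the last of its values stood apart from the rest, with a log2 ratio of -0.65 to Scr_600. Lars, the leucine enzyme, which also takes part in leucine sensing by mTORC1, was at 29.5, 23.3, 25.8 and 14.9 FPKM. It was lower at 600 than at 300 mosmol/kg in Scr and in knockout cells, and its log2 ratio to Scr_600 was -0.64.

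The second question was what hypertonic medium does in cells with Nfat5. In Scr_600 against Scr_300, 12 of 20 cytosolic synthetases were lower, beside 54.6% of all 12929 genes compared, with a median log2 ratio of -0.04 for these genes and for all genes alike. None differed by 1.5-fold in either direction, where 10.4% of all genes were past this size upwards and 9.01% downwards. Farsb (-0.57) and Dars, the aspartate enzyme (-0.51), had the lowest ratios, and Mars, the methionine enzyme (0.36), and Aars, the alanine enzyme (0.24), the highest. The direction depended on scale here: with FPKM rescaled to a common sum, the cytosolic median was 0.09, 6 of 20 were lower, and the median of all genes was 0.09 as well.

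In cells without Nfat5 the same medium went with lower levels of nearly all cytosolic synthetases. In Nfat5-KO_600 against Nfat5-KO_300, 18 of 20 were lower, beside 52.9% of all 12982 genes compared, and the median log2 ratio was -0.45 beside -0.04 for all genes. At least 1.5-fold lower were 5 of them, namely Farsb (-0.95), Tars (-0.81), Lars (-0.79), Kars (-0.62) and Wars (-0.59), where the background was 13.8%. None was past that size upwards, where the background was 14.1%. Among genes averaging 10 FPKM or more, 65.2% were lower, 15.6% by 1.5-fold or more, and the median was -0.16. With FPKM rescaled to a common sum the cytosolic median was -0.20, 14 of 20 were lower and the median of all genes was 0.20. On that scale Farsb alone of the 5 was at least 1.5-fold lower (-0.70), and Mars was past that size upwards (0.76). The comparison shares its Nfat5-KO_600 value with that against Scr_600, so both read the same low values.

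**Figure D2:**
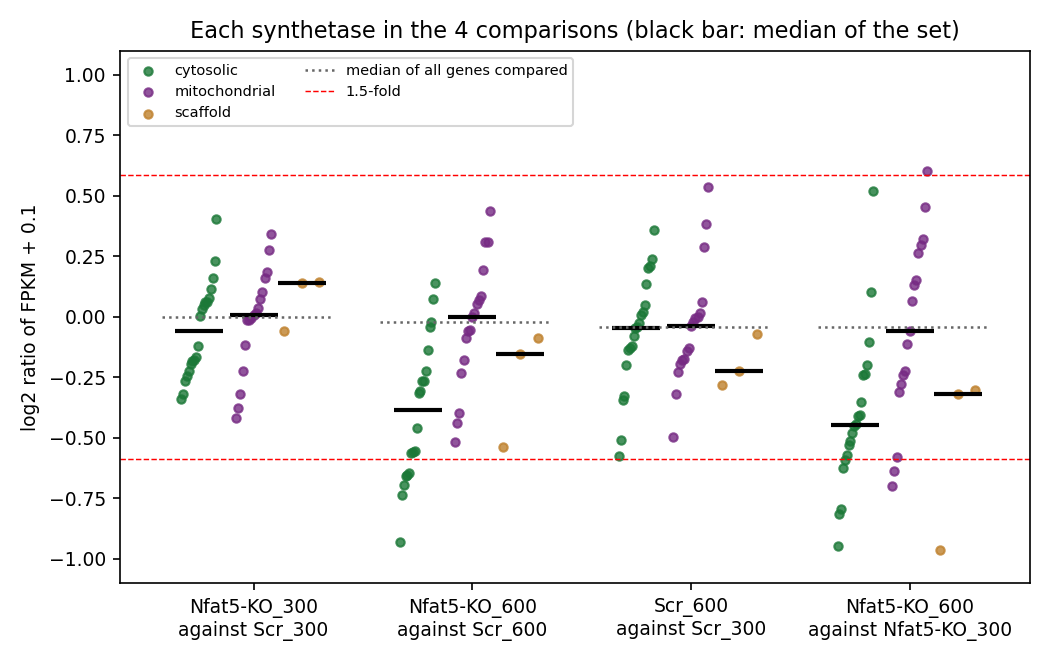
Log2 ratios (FPKM + 0.1) of each synthetase and scaffold protein in the 4 comparisons, with black bars for the median of each set, a dotted line for the median of all genes compared and dashed lines at 1.5-fold. The cytosolic medians are -0.06, -0.38, -0.04 and -0.45 from left to right, and the mitochondrial medians lie between -0.06 and 0.01.

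Nfat5-KO_600 was the lowest of the 4 groups for 16 of 20 cytosolic synthetases and the highest for none, where 32.8% of the 13414 genes that reached 0.5 FPKM anywhere were lowest there. Other genes of translation shared this. Nfat5-KO_600 was lowest for 66 of 81 cytosolic ribosomal proteins, 8 of 8 cytosolic elongation factors, 30 of 46 initiation factors and 50 of 77 mitochondrial ribosomal proteins. The log2 ratio of knockout to Scr cells was lower at 600 than at 300 mosmol/kg for 17 of 20, beside 52.0% of all genes, with a median difference of -0.37. By construction this is also the difference between the responses of knockout and Scr cells to hypertonic medium. It was negative too for 42 of 46 initiation factors (median -0.20), 62 of 77 mitochondrial ribosomal proteins (-0.15) and 55 of 81 cytosolic ribosomal proteins (-0.08). Among the cytosolic synthetases the difference reached 1.5-fold in 4 genes, Tars (-0.77), Iars (-0.69), Vars (-0.66) and Gars (-0.64), beside 8.75% of all genes. Gars (chr6:55038007-55079500, plus strand), whose product charges glycine tRNA in both compartments, was at 87.1 FPKM in Scr_300, 100.1 in Scr_600, 92.0 in Nfat5-KO_300 and 67.8 in Nfat5-KO_600. Like Iars and Vars it was higher at 600 than at 300 mosmol/kg in Scr cells and lower in knockout cells. With FPKM rescaled to a common sum, Nfat5-KO_600 was lowest for 12 of 20, the difference was negative for 16 of 20, and its median was -0.26. That rescaling shifted the log2 ratios to Scr cells by 0.13 at 600 and by 0.015 at 300 mosmol/kg. Of the 4 genes named above, only Tars then kept a difference of at least 1.5-fold, and Iars, Vars and Gars fell below it.

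**Figure D3:**
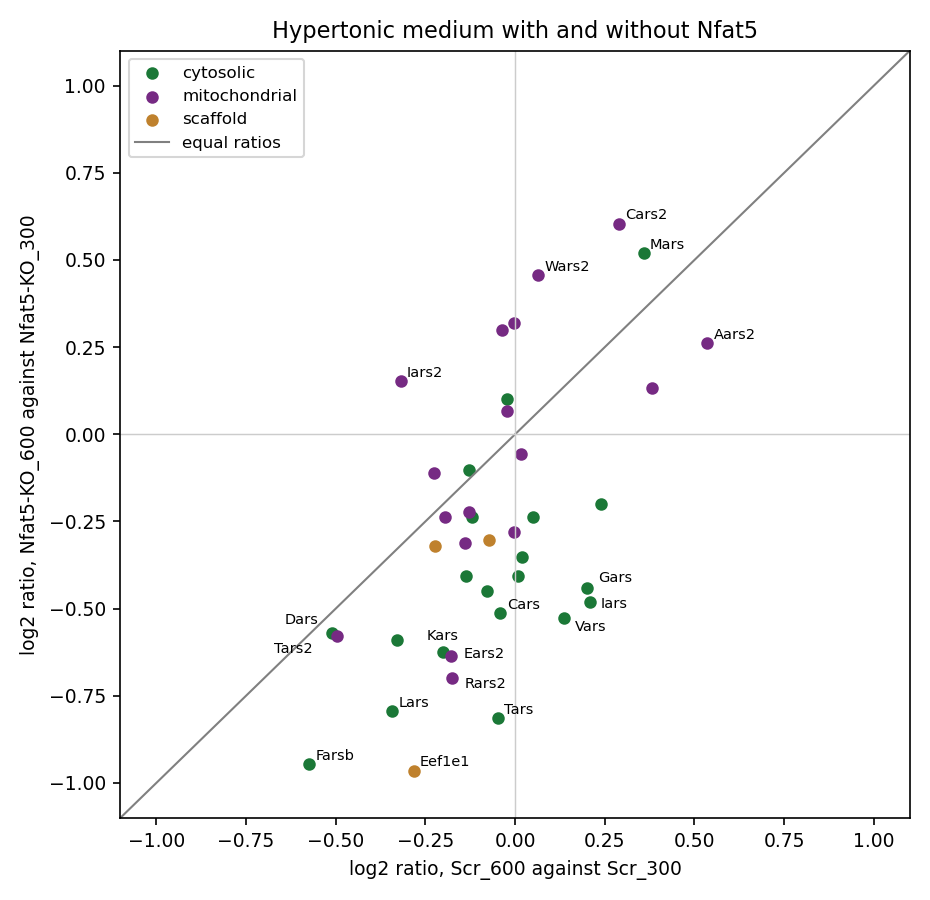
Log2 ratio of hypertonic to isotonic medium in Scr cells (horizontal axis) and in Nfat5-KO cells (vertical axis), 1 point per gene, with a diagonal for equal ratios. Of 20 cytosolic synthetases 17 lie below the diagonal, among them Tars, Iars, Vars and Gars, while the mitochondrial genes lie on both sides.

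A few cytosolic synthetases went another way. Mars (chr10:127296221-127311786, minus strand), which charges both initiator and elongator methionine tRNA, was at 26.1 FPKM in Scr_300 and 33.5 in Scr_600, and at 23.0 in Nfat5-KO_300 and 33.0 in Nfat5-KO_600. It was higher at 600 mosmol/kg in both lines (log2 ratios 0.36 and 0.52), and the lines were nearly level there (-0.02). Sars, the serine enzyme, which also charges the selenocysteine tRNA, lay between 39.4 and 44.5 FPKM in all 4 groups. Qars, the glutamine enzyme, lay between 16.8 and 18.9 FPKM, the smallest ratio of highest to lowest group among the cytosolic genes. Wars was at 30.2 FPKM in Scr_300, 24.0 in Scr_600, 40.0 in Nfat5-KO_300 and 26.5 in Nfat5-KO_600. It was the higher in knockout cells at both tonicities, and with Sars it was 1 of the 2 cytosolic genes above the control at 600 mosmol/kg (log2 ratios 0.14 and 0.07).

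Phenylalanine is charged by an enzyme of paired alpha and beta subunits, encoded by Farsa and Farsb. Farsa was at 21.6 FPKM in Scr_300, 22.3 in Scr_600, 22.5 in Nfat5-KO_300 and 19.1 in Nfat5-KO_600. Farsb (chr1:78417975-78488897, minus strand) was at 33.4, 22.4, 34.8 and 18.0 FPKM. The beta subunit thus had the lower level in both hypertonic groups, and the alpha subunit varied little. The ratio of Farsb to Farsa was 1.55 in Scr_300 and 1.55 in Nfat5-KO_300, and 1.00 in Scr_600 and 0.944 in Nfat5-KO_600, so it was near 1 in both hypertonic groups and level between the isotonic ones. In the GENCODE M21 annotation 9.47% of the exon bases of Farsb overlap exons of Sgpp2 on the other strand. Sgpp2 was at 8.14, 4.90, 7.43 and 11.7 FPKM, and whether counting used strand is not given in the sources used here.

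Synthetases of the multisynthetase complex were set beside those outside it. In Nfat5-KO_600 against Scr_600 all 8 complex members were lower, their median was -0.29 on the log2 scale, and Iars and Lars were past 1.5-fold. Of the 12 cytosolic synthetases outside it 10 were lower, with a median of -0.56 and 4 past 1.5-fold. Over all genes 52.2% were lower and 9.44% at least 1.5-fold lower. After rescaling FPKM to a common sum, only Vars and Nars, both outside the complex, stayed at least 1.5-fold lower. Mars (0.11) and Qars (0.09), both of the complex, were then above Scr_600, and so were Sars (0.20) and Wars, both outside it. Against Nfat5-KO_300 the medians on the deposited scale were -0.44 and -0.45. The scaffold proteins were lowest in Nfat5-KO_600 in all 3 cases on the deposited scale, beside 32.8% of all genes. After rescaling to a common sum, the log2 ratios to Scr_600 were 0.04 for Aimp2, -0.03 for Aimp1 and -0.41 for Eef1e1. Aimp2 was thus no longer lowest in Nfat5-KO_600. Eef1e1, which links the methionine enzyme to the complex (chr13:38644207-38659058, minus strand), was at 10.2 FPKM in Scr_300, 8.37 in Scr_600, 11.3 in Nfat5-KO_300 and 5.74 in Nfat5-KO_600. Its hypertonic knockout level was 48.8% below that of isotonic knockout cells (log2 ratio -0.96). Aimp1, which binds the arginine enzyme and is also secreted as a cytokine precursor, was at 19.7, 16.9, 19.0 and 15.2 FPKM. Aimp2, which organises the core of the complex, was at 27.4, 26.0, 30.2 and 24.5 FPKM, and 29.4% of its exon bases overlap Eif2ak1 on the other strand. Neither of these 2 genes was past 1.5-fold in any comparison.

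The cytosolic synthetases often listed as targets of ATF4 were compared with the remainder. At 600 mosmol/kg the median log2 ratio of knockout to Scr cells was -0.56 over the 12 listed genes, of which 10 were lower and 5 at least 1.5-fold lower (Nars, Cars, Iars, Tars and Lars), beside 52.2% and 9.44% of all genes. Of these 5 only Nars was past that size with FPKM rescaled to a common sum. The 8 genes outside the list had a median of -0.26, with all 8 lower and 1 past 1.5-fold, Vars. In Nfat5-KO_600 against Nfat5-KO_300 the order was not the same, with medians of -0.42 for the listed genes and -0.49 for the others. Of the wider ATF4 list of amino acid genes, 21 of 24 genes compared had a lower value in hypertonic knockout than in hypertonic Scr cells, 11 by 1.5-fold or more, beside the same 52.2% and 9.44% of all genes, and the median was -0.57. Against Scr_300, 19 of 24 were lower in Nfat5-KO_300, beside 50.2% of all genes, and the median was -0.33. Atf4 mRNA was at 160.9 FPKM in Scr_300, 191.3 in Scr_600, 140.2 in Nfat5-KO_300 and 129.1 in Nfat5-KO_600. Asns, asparagine synthetase, was at 66.3, 44.4, 52.6 and 19.5 FPKM in these groups. Of this list Nupr1 (2.68) and Cth, of cysteine synthesis (-1.34), had the largest log2 ratios in Scr_600 against Scr_300, and Asns (-1.42) and Pycr1 (-1.40) those in Nfat5-KO_600 against Nfat5-KO_300.

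ATF4 and C/EBP proteins bind a joint element that contains the letters TGATGCAA. RefSeq promoter windows of 300 bases (250 before to 50 after the start, GRCm38.p6) were matched for 30 of the 40 genes and searched on both strands for 11 motifs. TGATGCAA lay in the windows of 4 of 13 cytosolic synthetases, Aars, Iars, Tars and Yars, in 0 of 14 mitochondrial synthetases and in 0 of 3 scaffold genes. It lay in 0.895% of all 32851 windows, in 0.697% of the genes with a window that reached 0.5 FPKM in a group, and in the windows of 5 of 24 genes on the wider ATF4 list. The stretches that follow are shown because they hold these letters, for 3 of the synthetases and for a pair of genes from the wider list. They run 5′ to 3′ on the strand of the gene, with the element in capitals (TTGCATCA is the same element on the other strand).
Iars (chr13:49682126-49682155, plus strand): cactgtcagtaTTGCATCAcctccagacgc
Tars (chr15:11399655-11399684, minus strand): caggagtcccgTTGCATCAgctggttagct
Yars (chr4:129189895-129189924, plus strand): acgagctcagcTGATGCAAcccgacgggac
Pycr1, of proline synthesis (chr11:120643833-120643862, minus strand): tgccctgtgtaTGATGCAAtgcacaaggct
Nupr1, a stress-induced nuclear protein (chr7:126625562-126625591, minus strand): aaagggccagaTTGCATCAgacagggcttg

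The element began 15 bases before the start in Tars, and 7 and 3 bases after it in Iars and Yars. In Nfat5-KO_600 against Scr_600 the 4 genes holding it had log2 ratios from -0.66 to -0.55 (median -0.61), and the 9 cytosolic genes with a window but without it from -0.56 to 0.07 (median -0.26). The 7 cytosolic genes without a matched window, Vars, Nars, Cars and Lars among them, had a median of -0.64. In Nfat5-KO_600 against Nfat5-KO_300 the ranges overlapped, from -0.81 to -0.20 with the element and from -0.95 to 0.52 without it. The medians there were -0.42 and -0.24. They were -0.04 and 0.05 in Nfat5-KO_300 against Scr_300, and 0.11 and -0.12 in Scr_600 against Scr_300. A link between the element and these ratios was not tested. The looser form TGATGNAA, which contains the first motif, was also found in Gars, and in 3.97% of all windows. TGGAAA, the core of the element that Nfat5 binds, lay in the windows of Farsb, Qars, Sars2 and Vars2 and in 21.4% of all windows. The E-box CACGTG lay in those of Aars, Farsb, Iars, Tars and Ears2, in 7.15% of all windows and in 11.9% of the genes at 0.5 FPKM or more. GGGCGG lay in 8 of 13 cytosolic and 11 of 14 mitochondrial windows, beside 35.7% of all windows and 70.5% of the 9043 genes with a window that reached 0.5 FPKM in a group. GGAAGNNC lay in 4 of 13 and 3 of 14, beside 24.3% of all windows and 34.5% of those genes. TGACGTCA was found in none of these windows and in 1.79% of all, TGATGCAAT, which extends the first motif, in Aars and Iars and in 0.192% of all. The long TonE motif was found in Vars2 and in 1.28% of all windows, and those of ZBTB33 and ZNF143 in none of the 30, beside 0.466% and 0.950% of all.

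Mitochondrial synthetases lay on both sides of the control in each comparison. In Nfat5-KO_300 against Scr_300, 8 of 17 were lower (median log2 ratio 0.01), beside 50.2% of all genes, and in Nfat5-KO_600 against Scr_600 9 of 17 (-0.00), beside 52.2%. In Scr_600 against Scr_300 12 of 17 were lower (-0.04), beside 54.6%, and in Nfat5-KO_600 against Nfat5-KO_300 9 of 17 (-0.06), beside 52.9%. Their summed FPKM was 100.7 in Scr_300, 96.0 in Scr_600, 101.2 in Nfat5-KO_300 and 99.9 in Nfat5-KO_600. Nfat5-KO_600 was lowest for 6 of 17, beside 32.8% of all genes. The difference between the log2 ratios at 600 and 300 mosmol/kg was negative for 10 of 17, beside 52.0%, with a median of -0.07 and none past 1.5-fold. These last 2 counts are near the shares over all genes. With FPKM rescaled to a common sum, the medians at 600 mosmol/kg against Scr_600 and against Nfat5-KO_300 were 0.12 and 0.18, beside 0.11 and 0.20 for all genes.

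**Figure D4:**
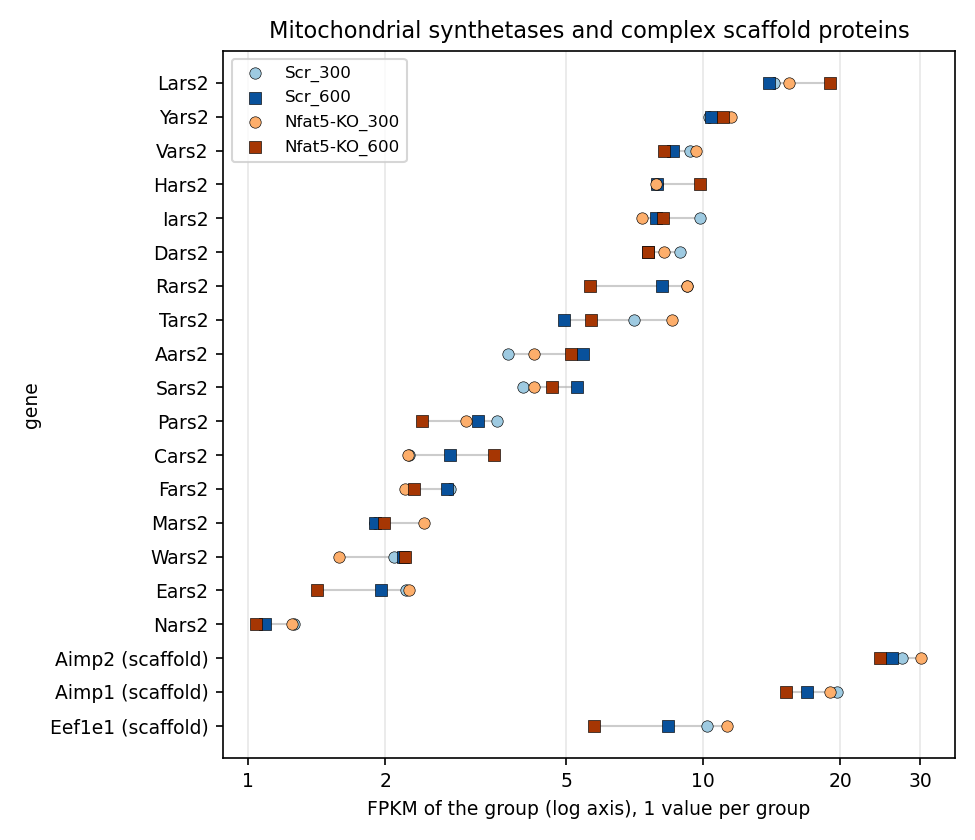
FPKM of each mitochondrial synthetase and of the 3 scaffold genes (1 row per gene, log axis) in the 4 groups, with 1 value per group and a grey line from lowest to highest. The Nfat5-KO_600 value is leftmost in 6 of 17 mitochondrial rows and in all 3 scaffold rows.

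Single mitochondrial genes lay on both sides. Past 1.5-fold were 3, all in Nfat5-KO_600 against Nfat5-KO_300: Rars2 and Ears2 lower and Cars2 higher, beside 13.8% and 14.1% of all genes. With FPKM rescaled to a common sum neither Rars2 nor Ears2 was past 1.5-fold there, Cars2 (0.84) and Wars2 (0.69) were past it upwards, and so was Aars2 (0.66) in Scr_600 against Scr_300. Rars2, the mitochondrial arginine enzyme (chr4:34614957-34660167, plus strand), was at 9.20 FPKM in Scr_300, 8.14 in Scr_600, 9.24 in Nfat5-KO_300 and 5.65 in Nfat5-KO_600, a log2 ratio of -0.70 to Nfat5-KO_300. Ears2, which charges glutamate, was at 2.23, 1.96, 2.26 and 1.42 FPKM, a log2 ratio of -0.64. Both genes were nearly level between the isotonic groups and lowest in Nfat5-KO_600. Cars2, whose product also makes cysteine persulfides, was at 2.26, 2.78, 2.25 and 3.47 FPKM, a log2 ratio of 0.60, and was higher at 600 mosmol/kg in both lines. Exons of Naxd on the other strand overlap 5.83% of the exon bases of Cars2. Naxd was at 7.75, 6.45, 6.67 and 6.16 FPKM in the same order of groups. Lars2, the mitochondrial synthetase with the highest mean FPKM, was at 14.3, 14.0, 15.4 and 19.0 FPKM and had the highest log2 ratio to Scr_600 (0.44), followed by Hars2 (0.31).

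In Scr cells the largest hypertonic ratios among mitochondrial genes were those of Aars2 (0.54) and Sars2 (0.38) upwards and Tars2 (-0.50) and Iars2 (-0.32) downwards. Tars2 was at 7.03 FPKM in Scr_300, 4.95 in Scr_600, 8.53 in Nfat5-KO_300 and 5.68 in Nfat5-KO_600, and was thus lower at 600 mosmol/kg with or without Nfat5. Iars2 was at 9.86, 7.88, 7.36 and 8.18 FPKM and Wars2 at 2.09, 2.19, 1.59 and 2.21 FPKM. For both, Nfat5-KO_300 was the lowest group, with log2 ratios of -0.42 and -0.38 to Scr_300. Mars2 (0.34) and Tars2 (0.28) had the highest ratios in that comparison. Exons of Rab3gap2 on the other strand overlap 22.9% of the exon bases of Iars2. Nars2 and Ears2 had the lowest mean levels, 1.16 and 1.96 FPKM, and Yars2 had a mean of 10.8 FPKM. A ratio can be less certain at low levels, and the number of reads behind these values is not given.

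The enzymes for the same amino acid could be set beside each other in 17 pairs. Eprs stood in both the glutamate and the proline pair, and Farsa stood for phenylalanine, so the pairs are not all separate. The cytosolic gene had the higher FPKM in all 4 groups in 16 pairs. The exception was leucine, where the ratio of Lars to Lars2 was 2.06 in Scr_300, 1.66 in Scr_600, 1.67 in Nfat5-KO_300 and 0.782 in Nfat5-KO_600. The mitochondrial gene thus had the higher FPKM in hypertonic knockout cells. Whether such a ratio lies above or below 1 also rests on the gene lengths used, which are not given. Between isotonic and hypertonic medium, the ratio of cytosolic to mitochondrial mRNA was lower at 600 mosmol/kg in 13 pairs in knockout cells and in 7 pairs in Scr cells. A ratio within a group does not depend on how the groups are scaled. The summed cytosolic over the summed mitochondrial FPKM was 7.92 in Scr_300, 8.24 in Scr_600, 7.64 in Nfat5-KO_300 and 5.78 in Nfat5-KO_600.

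Between isotonic and hypertonic knockout cells the largest within-pair shifts were those of cysteine and leucine. The ratio of Cars to Cars2 was 8.10 in Scr_300, 6.39 in Scr_600, 6.95 in Nfat5-KO_300 and 3.15 in Nfat5-KO_600. Methionine went the other way, with a ratio of Mars to Mars2 of 13.7, 17.7, 9.44 and 16.6. So did the arginine, glutamate and proline pairs, by log2 changes of 0.30, 0.43 and 0.08 between isotonic and hypertonic knockout cells. Hars and Hars2 start 197 bases apart on opposite strands and share 195 exon bases. Their ratio was 4.51, 4.28, 5.35 and 3.13 in the same order of groups. In all, 11 of the 40 genes start within 1000 bases of a protein-coding gene on the other strand, with Hars and Hars2 counted as each other's neighbour. The share over all genes was not computed, so whether this count is unusual is not known. Rars2 and Orc3, an origin recognition subunit, start 13 bases apart, and Orc3 had a log2 ratio of -0.13 in Nfat5-KO_600 against Nfat5-KO_300 where Rars2 had -0.70.

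Other genes of tRNA charging and translation give the setting. Of the 14 further enzymes of aminoacyl-tRNA formation and quality control that were compared, 10 were below their Scr_600 value in Nfat5-KO_600 (median -0.09 on the log2 scale), and 1 was past 1.5-fold, Trnt1, which adds the CCA end to tRNA (-0.63). Over all genes 52.2% were lower there and 9.44% were at least 1.5-fold lower. Tarsl2, a cytosolic threonine enzyme outside the naming pattern, had a log2 ratio of -0.85 in Nfat5-KO_600 against Nfat5-KO_300 and of -0.91 in Scr_600 against Scr_300. Cytosolic ribosomal proteins had medians of -0.57 in Scr_600 against Scr_300 and -0.65 in Nfat5-KO_600 against Nfat5-KO_300, where 38 and 52 of 81 were at least 1.5-fold lower, beside 9.01% and 13.8% of all genes. The cytosolic synthetases had medians of -0.04 and -0.45 there. The corresponding medians were -0.38 and -0.60 for 8 cytosolic elongation factors and -0.24 and -0.49 for 46 initiation factors. For 77 mitochondrial ribosomal proteins they were -0.20 and -0.37, and for 10 mitochondrial translation factors -0.16 and -0.27, where the mitochondrial synthetases had -0.04 and -0.06. In Nfat5-KO_600 against Scr_600 the cytosolic synthetases had -0.38. There 67 of 81 cytosolic ribosomal proteins (median -0.20) and 8 of 8 elongation factors (-0.23) were lower, beside 52.2% of all genes. So were 30 of 46 initiation factors (-0.20) and 58 of 77 mitochondrial ribosomal proteins (-0.16). Rescaling FPKM to a common sum raises all these medians, by about 0.13 in the 2 comparisons with Scr_600 and 0.24 in Nfat5-KO_600 against Nfat5-KO_300. No difference between these lists was tested.

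**Figure D5:**
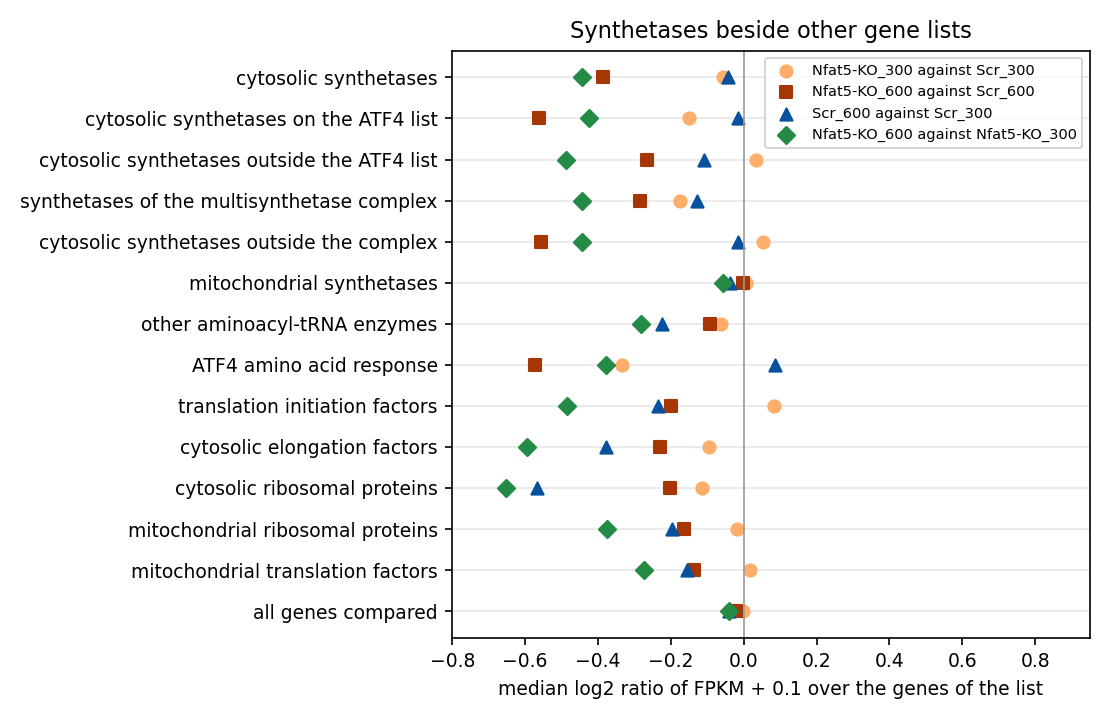
Median log2 ratio (FPKM + 0.1) of the synthetases and of other gene lists in the 4 comparisons, 1 symbol per comparison. The cytosolic synthetases are near 0 in Scr_600 against Scr_300 (-0.04) and at -0.45 in Nfat5-KO_600 against Nfat5-KO_300, whereas cytosolic ribosomal proteins are low in both (-0.57 and -0.65).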

How the data were processed

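Per the labels and the methods of the study, poly(A) RNA of 12 libraries was sequenced as read pairs, mapped by the authors to GRCm38/mm10 with HISAT2 and counted with HTSeq (versions and annotation release are not given in the sources used here). The deposited table holds FPKM, 1 column per group. How libraries were combined is not given, and sequencing depth is unknown. Of 54839 rows, 52403 had values, 311 exact repeats were dropped, and 37 symbols with several rows were not used. Log2 ratios used a pseudocount of 0.1 FPKM and a floor of 0.5 FPKM in either group, and 1.5-fold was the size counted. The design foresaw tests only if library values were present. All 40 genes may be named; values are given for the scaffolds, for the 2 highest and 2 lowest per class, for those past 1.5-fold or the 2 largest per direction, and, of other lists, the 2 largest hypertonic ratios may be given. A listed gene and a promoter stretch are not reported here. Genes outside this rule (Farsa, Atf4, Trnt1, Orc3, Sgpp2, Naxd, Nfat5 and the cell type markers) were chosen after their values were seen. The members and lists were chosen with earlier results of these data known. Positions and overlaps came from GENCODE M21 and promoters from RefSeq. Transcripts of other genes at least 90% identical over 200 bases to a member were sought with blastn 2.17.0, and 11 members had such a transcript. Among these, Iars has a pseudogene, Gm4849, at 0.0300 FPKM at most. Computations used Python 3.11.15 with pandas 2.3.3, numpy 2.4.6 and matplotlib 3.10.9 and were tested on simulated data.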

Additional observations from a re-analysis of the deposited data

How the results depend on the processing

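With 1 value per group, leaving out a replicate could not be run, and no replicate error limits the ratios. No paired analysis was possible because there is only 1 deposited value per group. In the labels the knockout groups share both clones but only some of the replicate numbers. The 2 filters (none, or a mean of at least 1 FPKM) altered no member. A pseudocount of 0.01 and scaling by the median of ratios moved no median by 0.1 and no count by over 1.5 times. A pseudocount of 1 left 1 mitochondrial synthetase past 1.5-fold in Nfat5-KO_600 against Nfat5-KO_300 (3 with 0.1). FPKM rescaled to the same sum in each group (TPM) shifted all log2 ratios by 0.13 against Scr_600, 0.13 in Scr_600 against Scr_300 and 0.24 in Nfat5-KO_600 against Nfat5-KO_300, all genes alike, because the groups' FPKM sums differ. The cytosolic medians then were -0.26, 0.085 and -0.20 and the mitochondrial medians 0.12, 0.092 and 0.18. Of cytosolic genes, 2 (Vars and Nars) were past 1.5-fold against Scr_600, and 2 against Nfat5-KO_300, Farsb lower and Mars higher. Of mitochondrial genes, 1 was past it in Scr_600 against Scr_300, Aars2, and 2 in Nfat5-KO_600 against Nfat5-KO_300, Cars2 and Wars2 upwards, while Rars2 and Ears2 were not. No member past 1.5-fold had the opposite sign under any of these settings. The shares over genes averaging 10 FPKM or more and the counts of lower genes were added after seeing the data.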
